A study of Mus musculus with 4 samples.

Results

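The genes described here make cholesterol and fatty acids and are known targets or parts of the SREBP pathway. They came from a list of 36 symbols, 21 for the sterol branch and 15 for the fatty acid branch, of which 32 were measured: 19 sterol genes and 13 fatty acid genes out of 19505 genes with a symbol on the array. Each had a single feature on the array. Tm7sf2, Acat2, Scd2 and Srebf1 were not analysed here. CD8+ T cells of C57/BL6 mice, taken from spleen and lymph nodes, were cultured for 3 days on anti-CD3 and anti-CD28 beads, which trigger the T cell receptor and its co-stimulator, and with interleukin 2, a T cell growth factor. The 2 control cultures were left untreated and the 2 spermidine cultures had 25 µM of this polyamine in the medium; all 4 arrays were Clariom S Mouse arrays from 250 ng of total RNA. The labels call the arrays biological replicates and name no animals or cultures, so the p-values here reflect only how these samples vary, which may be technical. The mice's age and sex are not given in the sources used here.

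Sterol regulatory element-binding proteins (SREBPs) are transcription factors made as membrane proteins of the endoplasmic reticulum. When membrane sterol is low, the carrier protein Scap takes them to the Golgi, where proteases cut them free to enter the nucleus; when sterol is plentiful, the Insig proteins hold them back. The protein made from Srebf2 acts mainly on cholesterol synthesis and that from Srebf1 mainly on fatty acid synthesis, often with the factors NF-Y and Sp1 bound nearby. T cells switch both branches on when they are activated, since growth and division need new membrane.

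In the spermidine cultures every measured member had a lower mean signal than in the control cultures, 32 of 32, though Fasn turned to 0.021 after further quantile normalization and 0.015 after cyclic loess. A difference below 0 was found in 50.9% of all 22206 gene features and in 54.2% of the 9228 features that reached the background percentile, a log2 signal of 6.35 set from probes with no mouse target. The median log2 difference, spermidine minus control, was -0.55 over the 19 sterol genes and -0.32 over the 13 fatty acid genes, beside -0.01 over all gene features. The largest differences were those of the desaturase gene Fads2, 2.84-fold lower, and of Dhcr7, the reductase that finishes cholesterol, 2.46-fold lower. Fasn, the fatty acid synthase, had the smallest difference, with a log2 value of -0.04.

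None of these differences passed the test across the array. Of the 32 members 0 had an adjusted p under 0.05 (limma, Benjamini-Hochberg over all gene features), as did 0% of all 22206 features; the members' adjusted p ran from 0.637 to 0.988. At an unadjusted p under 0.05, 10 members were lower and 0 higher, against 3.64% and 3.38% of all features (7.02% in either direction). Among features at or above the background percentile the shares were 5.32% and 3.61% (8.93% in either direction). The 10 were 8 in the sterol branch (Hmgcs1, Pmvk, Fdps, Fdft1, Sqle, Cyp51, Ebp and Dhcr7) and Fads1 and Fads2 in the fatty acid branch. In 21 members both spermidine arrays lay below both control arrays, against 18.4% of all features in that order. Those 21 were 13 of 19 sterol genes and 8 of 13 fatty acid genes. At or above the background percentile it was 19 of 30 members, against 22.5% of such features. A fold of at least 1.5 lower was seen in 6 sterol genes and 3 fatty acid genes, against 4.40% of all features and 6.32% of those at or above the background percentile. In bulk RNA fewer cells with a transcript and less of it per cell cannot be told apart.

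**Figure D1:**
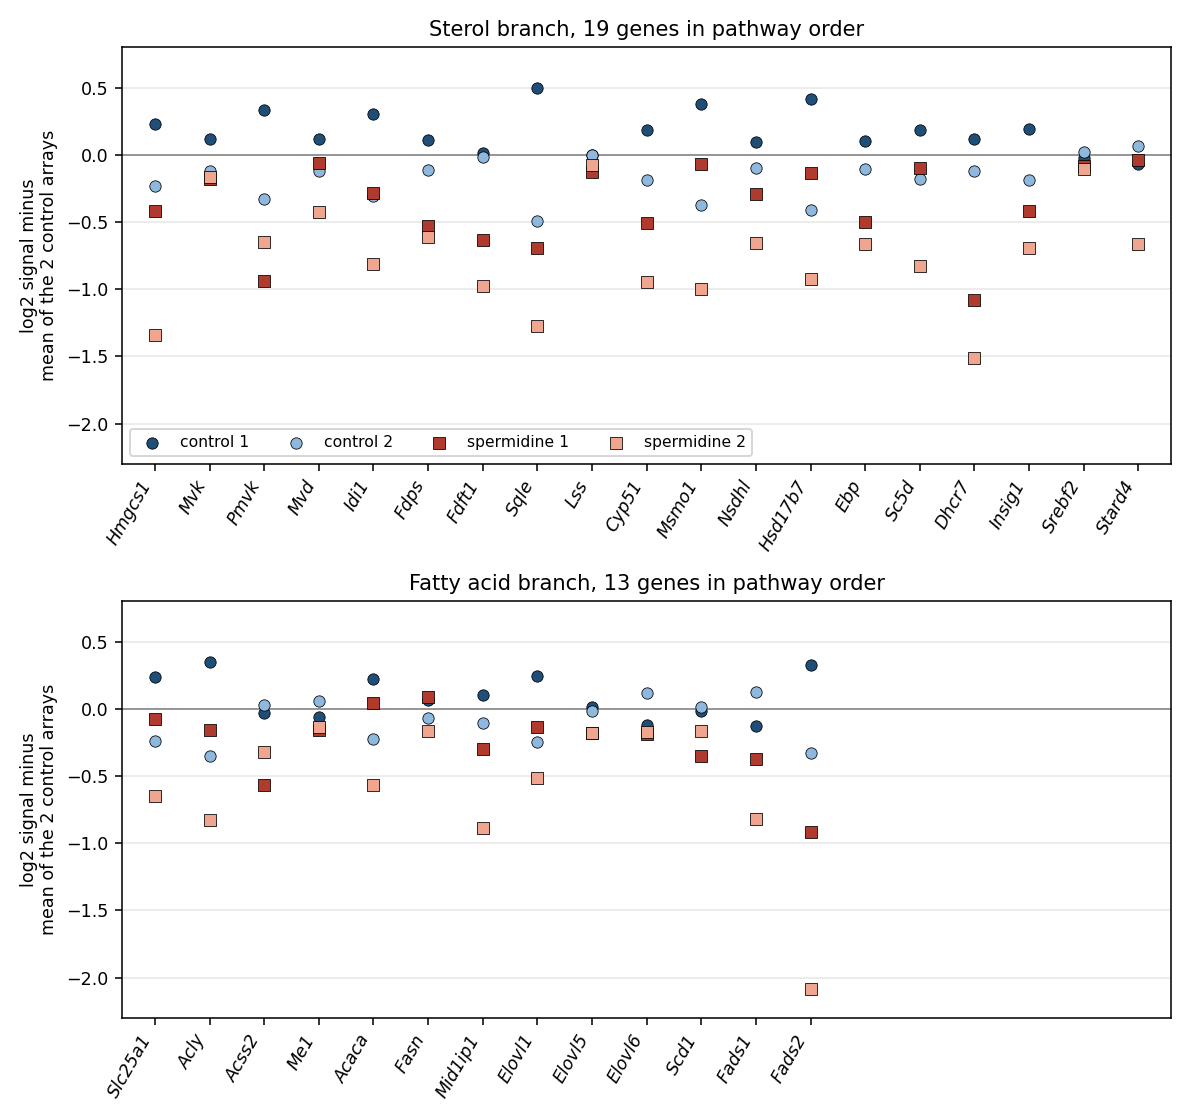
Log2 signal of each member in each of the 4 arrays, minus the mean of the 2 control arrays for that gene; circles are control arrays and squares spermidine arrays, genes run in pathway order. Spermidine replicate 2 lies below both control arrays for 32 of 32 genes, and spermidine replicate 1 for 21 of 32.

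The arrays did not carry the difference equally. Spermidine replicate 2 lay below both control arrays in 32 of 32 members (37.3% of all features, 45.8% of those at or above the background percentile) and spermidine replicate 1 in 21 of 32 (32.8% of all features). The mean log2 signal of the sterol branch was 11.04 and 10.70 in control replicates 1 and 2, and 10.50 and 10.12 in spermidine replicates 1 and 2. For the fatty acid branch the means were 10.72 and 10.53 against 10.38 and 10.05. Without spermidine replicate 2 the median differences shrank to -0.29 for the sterol branch and -0.18 for the fatty acid branch; without spermidine replicate 1 they were -0.70 and -0.51. Without control replicate 1 they were -0.38 and -0.21, and without control replicate 2 they were -0.75 and -0.47.

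**Figure D2:**
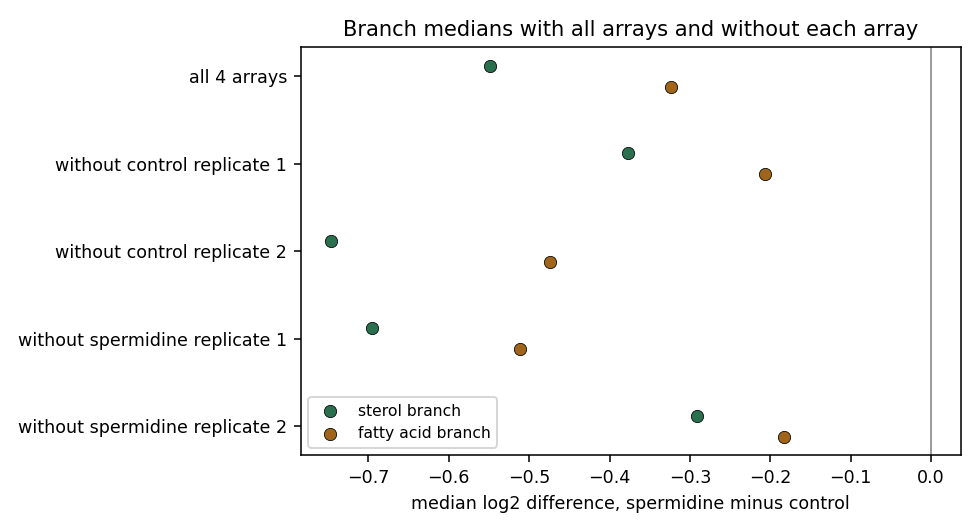
Median log2 difference (spermidine minus control) of the 19 sterol genes and the 13 fatty acid genes with all 4 arrays and without each array in turn. Both medians stay below 0 in each case, and lie closest to 0 without spermidine replicate 2, at -0.29 and -0.18.

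Genes of cell division were lower with spermidine as well. Over 9 of 10 listed dividing cell markers that were measured, the mean signal was 12.59 and 12.24 in the controls and 11.66 and 10.75 with spermidine, with a median log2 difference of -1.27; in 8 of the 9 both spermidine arrays lay below both controls (18.4% of all features, 22.5% of those at or above the background percentile). The median was -0.68 without spermidine replicate 2. In 6 of the 9 the arrays ran from control replicate 1 down to spermidine replicate 2, against 7.18% of all features and 12.1% of those at or above the background percentile. Cdk1, the kinase that starts mitosis, read 11.49 and 10.79 in the controls and 9.96 and 8.87 with spermidine. The part of cell division in the lipid gene differences was not tested. In the same arrays the B cell markers (5 of 6 measured) averaged 5.44 and 5.24 in the controls and 5.80 and 5.44 with spermidine. Of these 5, 3 were under the background percentile. Cd79a, part of the B cell receptor, read 6.44 and 6.50 in the controls and 7.40 and 7.15 with spermidine, a log2 difference of 0.81 ± 0.23 (SE; limma adjusted p = 0.637) without overlap. The macrophage markers (5 of 6 measured) averaged 3.50 and 3.54 in the controls and 3.56 and 3.63 with spermidine. These averages mix directions, with 3 markers higher and 2 lower. Lyz2 had a log2 difference of 0.86 ± 0.24 (SE; limma adjusted p = 0.637), without overlap. Itgam was at -0.41, also without overlap, and Csf1r at -0.35 with overlap. All 5 macrophage markers were under the background percentile in either group, so these differences are no measure of a fold. The NK cell markers (3 of 3 measured) averaged 5.37 and 5.14 in the controls and 5.32 and 4.99 with spermidine. This average mixes directions too, with 2 markers higher and 1 lower. Klre1 had a log2 difference of -0.85 and Ncr1 one of 0.44, each without overlap. Both were under the background percentile in both groups, so neither value is a measure of a fold. The dendritic cell markers (4 of 4) averaged 3.36 and 3.59 in the controls and 3.58 and 3.69 with spermidine. All 4 were under the background percentile in both groups. T cell markers were measured in 7 of 8, the CD3 chains and both CD8 chains among them. They averaged 14.67 and 14.80 in the controls and 14.48 and 14.72 with spermidine. Cd4 read 7.11 and 6.84 in the controls and 6.59 and 7.24 with spermidine. Hybridisation spike-ins, control transcripts of known amount, were 0.45 higher (log2) in the spermidine arrays and labelling spike-ins 0.43 higher; the part of these in the results was not tested either.

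The promoters of members whose levels bear on the comparison are printed next, because SREBPs usually act beside NF-Y boxes close to the start of transcription. Of the 32 measured members, 26 matched RefSeq promoter records of build GRCm38.p6, each 250 bases before to 50 after a start site; some genes have several starts, which gave 31 records. Capitals mark the NF-Y box CCAAT, on either strand, and the sterol regulatory element consensus TCACNCCAC, on either strand. Hmgcs1 lies at chr13:119690101-119690400 on the plus strand, this Dhcr7 start at chr7:143829964-143830263 on the plus strand, Cyp51 at chr5:4104648-4104947 on the minus strand, Lss at chr10:76531355-76531654 on the plus strand and Fads2 at chr19:10101454-10101753 on the minus strand. The first 3 had large differences, Lss a small one with the same kind of box, and Fads2 the largest one with neither motif.
Hmgcs1: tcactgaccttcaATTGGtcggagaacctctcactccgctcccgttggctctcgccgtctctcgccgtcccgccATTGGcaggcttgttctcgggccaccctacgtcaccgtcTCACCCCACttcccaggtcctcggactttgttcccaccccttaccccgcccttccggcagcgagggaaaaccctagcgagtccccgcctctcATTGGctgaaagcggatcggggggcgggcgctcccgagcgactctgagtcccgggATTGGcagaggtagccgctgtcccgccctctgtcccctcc
Dhcr7: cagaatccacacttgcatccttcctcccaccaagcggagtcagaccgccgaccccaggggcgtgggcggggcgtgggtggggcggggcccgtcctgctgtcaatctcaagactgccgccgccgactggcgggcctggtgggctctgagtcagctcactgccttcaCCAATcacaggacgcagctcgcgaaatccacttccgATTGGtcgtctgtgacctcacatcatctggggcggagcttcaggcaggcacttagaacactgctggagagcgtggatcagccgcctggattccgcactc
Cyp51: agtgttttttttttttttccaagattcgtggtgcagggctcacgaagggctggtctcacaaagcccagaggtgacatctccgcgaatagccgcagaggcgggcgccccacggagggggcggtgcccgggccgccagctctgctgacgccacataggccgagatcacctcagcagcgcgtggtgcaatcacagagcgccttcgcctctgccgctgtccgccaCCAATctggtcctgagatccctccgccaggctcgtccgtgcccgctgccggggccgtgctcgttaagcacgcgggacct
Lss: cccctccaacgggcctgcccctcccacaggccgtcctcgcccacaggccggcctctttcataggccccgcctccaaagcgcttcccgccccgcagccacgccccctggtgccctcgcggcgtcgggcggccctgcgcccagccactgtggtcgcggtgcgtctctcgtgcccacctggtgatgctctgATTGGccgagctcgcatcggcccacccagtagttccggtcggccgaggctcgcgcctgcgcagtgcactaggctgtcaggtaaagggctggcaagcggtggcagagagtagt
Fads2: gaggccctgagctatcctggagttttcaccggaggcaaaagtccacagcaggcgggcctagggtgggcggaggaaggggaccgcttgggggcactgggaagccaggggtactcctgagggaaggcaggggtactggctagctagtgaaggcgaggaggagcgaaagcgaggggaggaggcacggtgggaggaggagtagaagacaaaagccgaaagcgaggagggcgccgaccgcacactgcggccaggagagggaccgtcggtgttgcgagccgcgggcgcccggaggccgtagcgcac

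The NF-Y box was found in 22 of 31 member records (71.0%), against 37.4% of all 32851 records and 38.6% of the 8759 records of genes measured at or above the background percentile. In the sterol branch 15 of 15 matched genes had it in at least 1 record, against 44.2% of the 6893 matched genes at or above that percentile; in the fatty acid branch it was 7 of 11 genes. The element TCACNCCAC was found in Hmgcs1 alone, starting at position -137 from the start site, against 1.24% of all records. The E-box CACGTG was found in 6 member records (19.4%), against 10.5% of records of genes at or above the percentile. The GC box GGGCGG, which Sp1 binds, was found in 23 member records (74.2%), against 63.6% of those records. These are matches of letters and not shown to be sites, and a motif that is missing from this window says nothing about the factor.

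Members with and without the box overlapped in the size of their difference. Only 4 matched genes lacked it, and whether the box bears on that size was not tested. The 22 genes with an NF-Y box in a record had a median log2 difference of -0.47 and a range from -1.30 to -0.04, and the 4 without (Acaca, Elovl6, Fads2 and Mid1ip1) a median of -0.43 and a range from -1.50 to -0.18. Lss and Cyp51 each have a box, at positions -62 and -29, with log2 differences of -0.10 and -0.73. Of the 3 Dhcr7 starts only the record printed above holds the box, at positions -85 and -49.

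The sterol pathway begins with the mevalonate steps, where 4 of 4 genes were measured and the median log2 difference was -0.52. Hmgcs1, which joins acetyl-CoA units into HMG-CoA, read 14.88 and 14.43 in the controls and 14.24 and 13.31 with spermidine, so the groups did not overlap but the 2 spermidine arrays stood 0.93 apart. Its log2 difference was -0.88 ± 0.34 (SE), and -0.42 without spermidine replicate 2. Pmvk, the phosphomevalonate kinase, read 8.09 and 7.43 against 6.82 and 7.11, a log2 difference of -0.79 ± 0.28 (SE; limma adjusted p = 0.661). Here spermidine replicate 1 was the lower array, and without control replicate 1 the value was -0.46. Mvd, the decarboxylase that ends the mevalonate steps, read 9.57 and 9.33 against 9.38 and 9.03, and the groups overlapped; its difference of -0.24 became -0.064 without spermidine replicate 2. Mvk, the mevalonate kinase, stayed under the background percentile in all 4 arrays, with signals from 5.81 to 6.11, so its difference of -0.17 is no measure of a fold.

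From isopentenyl units to lanosterol 5 of 5 genes were measured, with a median log2 difference of -0.57. Fdft1, the squalene synthase and the step that commits the pathway to sterols, read 11.65 and 11.62 in the controls and 11.00 and 10.65 with spermidine, with no overlap. The difference was -0.80 ± 0.23 (SE; limma adjusted p = 0.637) and was 2.32 times the wider gap between arrays of a group. Sqle, the squalene epoxidase, read 10.03 and 9.04 against 8.84 and 8.26. Its difference of -0.99 ± 0.36 (SE; limma adjusted p = 0.666) was about as large as the 0.99 gap between its control arrays, and without control replicate 1 it was -0.49. Fdps, which makes farnesyl diphosphate, read 9.43 and 9.21 against 8.79 and 8.71, a difference of -0.57 ± 0.23 (SE) at 2.61 times the wider gap. Idi1, the isomerase, read 11.41 and 10.80 against 10.82 and 10.29, and its groups overlapped; its difference of -0.55 became -0.25 without control replicate 1. Lss, which closes the sterol rings, read 12.12 and 12.11 against 11.99 and 12.04, a difference of -0.10 with a 95% interval from -0.60 to 0.40. Sqle and Lss are neighbours in the pathway; the difference between their values was not tested.

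From lanosterol to cholesterol 7 of 8 genes were measured, with a median log2 difference of -0.53 and a range from -1.30 to -0.46. Dhcr7 read 10.04 and 9.80 in the controls and 8.84 and 8.40 with spermidine. Both spermidine arrays stood clear of both control arrays, and the difference of -1.30 ± 0.25 (SE; limma adjusted p = 0.637, unadjusted p = 0.000846) was 3.02 times the wider gap. Leaving out 1 array moved it between -1.51 and -1.08. Cyp51, the lanosterol demethylase, read 13.62 and 13.25 against 12.93 and 12.49, without overlap, a difference of -0.73 ± 0.26 (SE; limma adjusted p = 0.661). Ebp, the sterol isomerase, read 11.14 and 10.93 against 10.54 and 10.37, a difference of -0.58 ± 0.23 (SE) at 2.76 times the wider gap.

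The other genes of this stretch were less clear of their replicate gaps. Nsdhl, which acts in removing the methyl groups at carbon 4, read 12.05 and 11.86 against 11.66 and 11.30, without overlap, a difference of -0.47. Msmo1, the methylsterol oxidase, read 8.91 and 8.16 against 8.47 and 7.54, and Hsd17b7, a ketoreductase, 9.88 and 9.06 against 9.33 and 8.55. In both the groups overlapped, and without spermidine replicate 2 the differences of -0.53 in each became -0.07 and -0.14. Sc5d, the sterol C5 desaturase, read 13.40 and 13.03 against 13.12 and 12.39, with overlap, and its difference of -0.46 became -0.10 without spermidine replicate 2.

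The regulators and carriers of the sterol branch had a median log2 difference of -0.35 over 3 of 4 genes. Srebf2, which encodes the SREBP that acts mainly on this branch, read 15.03 and 15.07 in the controls and 14.96 and 14.94 with spermidine. The groups did not overlap, but the log2 difference was -0.10 ± 0.22 (SE; limma adjusted p = 0.956), with a 95% interval from -0.60 to 0.41. Insig1, itself an SREBP target and the protein that retains SREBPs, read 11.02 and 10.64 against 10.41 and 10.14, a difference of -0.56 ± 0.25 (SE; limma adjusted p = 0.717) with no overlap. Stard4, a sterol carrier, read 11.44 and 11.57 against 11.47 and 10.84, so that only spermidine replicate 2 stood apart, and the difference of -0.35 became -0.04 without it.

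**Figure D3:**
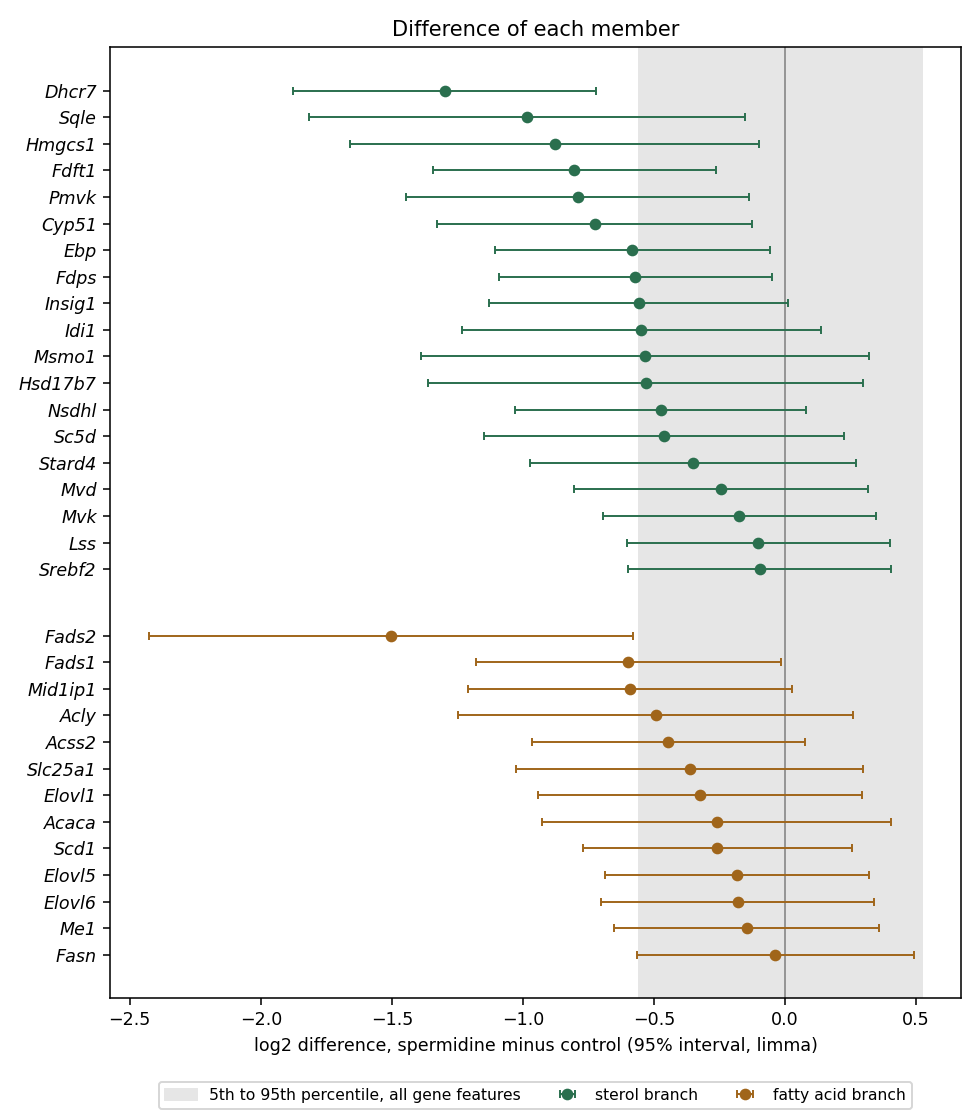
Log2 difference (spermidine minus control) of each of the 32 measured members with its 95% interval from limma; the grey band spans the 5th to 95th percentile of all 22206 gene features, from -0.56 to 0.53. Every point lies below 0 (Fasn would turn to 0.021 or 0.015 under other normalizations), with Fads2 at -1.50 and Dhcr7 at -1.30 furthest from it, and most intervals reach 0.

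In the fatty acid branch the genes that supply precursors had a median log2 difference of -0.40 over 4 of 4 genes. Acly, which splits citrate into acetyl-CoA, read 12.94 and 12.23 in the controls and 12.42 and 11.76 with spermidine, and the groups overlapped; the difference was -0.49 ± 0.33 (SE; limma adjusted p = 0.804) and became -0.14 without control replicate 1. Slc25a1, the mitochondrial citrate carrier, read 11.56 and 11.08 against 11.25 and 10.67, also with overlap, and its difference of -0.36 became -0.076 without spermidine replicate 2. Acss2, which makes acetyl-CoA from acetate, read 7.45 and 7.50 against 6.91 and 7.16, without overlap, a difference of -0.44 ± 0.23 (SE; limma adjusted p = 0.741). Me1, the malic enzyme that yields NADPH, had signals from 3.40 to 3.62, all under the background percentile.

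The genes that build the chain had a median log2 difference of -0.26 over 3 of 3 genes. Fasn read 11.80 and 11.66 in the controls and 11.82 and 11.57 with spermidine, with overlapping groups and a 95% interval of the difference from -0.56 to 0.49. Acaca, the carboxylase before it, read 9.95 and 9.50 against 9.77 and 9.16, with overlap, and its difference of -0.26 was 0.047 without spermidine replicate 2. Mid1ip1, which promotes the assembly of that carboxylase, read 7.93 and 7.72 against 7.53 and 6.94, without overlap, a difference of -0.59 ± 0.27 (SE; limma adjusted p = 0.717) that became -0.30 without spermidine replicate 2. The elongases Elovl1, Elovl5 and Elovl6 had differences of -0.32, -0.18 and -0.18, and Elovl1 overlapped between groups. Without control replicate 1 Elovl1 was at -0.076, and without control replicate 2 Elovl6 was at -0.059. Elovl5 read 16.37 and 16.34 against 16.17 and 16.17, the widest separation from its own replicate gap, 6.43 times, at a small size.

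Desaturases held the largest value of the branch. Fads2, the delta-6 desaturase that starts the synthesis of long polyunsaturated fatty acids, read 13.26 and 12.60 in the controls and 12.01 and 10.84 with spermidine. The groups did not overlap, but the 2 spermidine arrays stood 1.17 apart. The difference was -1.50 ± 0.40 (SE; limma adjusted p = 0.637); it became -0.92 without spermidine replicate 2 and -2.09 without spermidine replicate 1. Fads1, the delta-5 desaturase that acts after it, read 9.17 and 9.42 against 8.92 and 8.47, without overlap, a difference of -0.60 ± 0.25 (SE; limma adjusted p = 0.706) and -0.37 without spermidine replicate 2. Scd1, which makes monounsaturated fatty acids, read 8.96 and 8.99 against 8.63 and 8.81, a difference of -0.26 with an interval from -0.77 to 0.25; it has close paralogs, and nothing in the labels says whether its probes tell them apart.

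**Figure D4:**
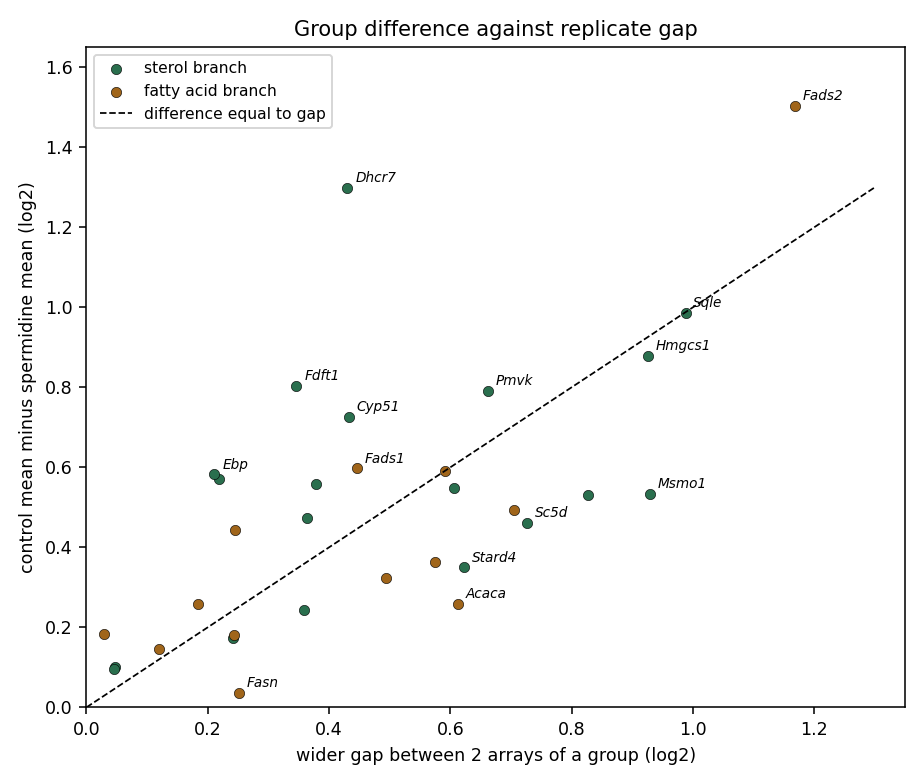
Control mean minus spermidine mean of each member (log2) against the wider of its 2 gaps between arrays of a group (log2); the dashed line marks equal size. Of the 32 members 16 lie above the line, Dhcr7 furthest above it, and Msmo1, Hsd17b7, Hmgcs1 and, barely, Sqle lie below it with gaps from 0.83 to 0.99.

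Many members, mostly of the sterol branch, shared the direction of their replicate gaps as well. In 16 of 32 members the difference was larger than the wider gap between arrays of a group. In the lower direction this held for 11.9% of all features and 14.8% of those at or above the background percentile. Replicate 1 read higher than replicate 2 in both groups in 21 members, 14 of 19 sterol genes and 7 of 13 fatty acid genes. The shares were 30.0% of all features and 44.6% of those at or above the background percentile. Across the 32 members the gap between the control arrays and the gap between the spermidine arrays had a Pearson r of 0.56, given as a description, since all points share the same 4 arrays; over all 22206 features r was 0.21. The arrays ran from control replicate 1 down through control replicate 2 and spermidine replicate 1 to spermidine replicate 2 in 11 members. These were 9 of 19 sterol genes, Dhcr7 among them, and 2 of 13 fatty acid genes, Mid1ip1 and Fads2. That order held in 7.18% of all features and 12.1% of those at or above the background percentile.

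The rest of the SREBP and sterol pathway was examined from further lists. The machinery that carries and cuts SREBPs had no common direction: of 6 of 8 genes measured, 3 were lower and 3 higher, 0 passed the adjusted test, and the median log2 difference was -0.03. Mbtps1, the first protease to cut SREBPs, read 10.78 and 10.53 against 11.05 and 10.93, a difference of 0.33. Rnf139, a ubiquitin ligase of the endoplasmic reticulum, had a value of -0.26 and Insig2 one of -0.18. Insig2 read 6.39 and 6.44 against 6.27 and 6.19, close to the background percentile of 6.35.

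Of the list of liver X receptor (LXR), efflux, esterification and oxysterol genes 6 of 9 were measured, 5 higher and 1 lower, with a median log2 difference of 0.48. It became 0.061 without control replicate 1, with 4 higher and 2 lower, and 0.18 if spermidine replicate 2 was left out. The list's mean signal was 6.05 and 6.69 in the controls and 6.64 and 7.02 with spermidine, so the arrays interleaved; 3 of the 6 were under the background percentile in both groups, and 0 passed the adjusted test. Abca1, which loads cholesterol onto acceptor particles and is a known LXR target, read 8.27 and 9.30 in the controls and 9.67 and 9.88 with spermidine. The groups did not overlap (18.3% of all features in the higher direction), and the difference of 0.99 ± 0.34 (SE; limma adjusted p = 0.644) became 0.47 without control replicate 1. Apoe, a lipid carrier protein also under LXR control, read 7.10 and 7.36 against 7.75 and 8.33, a difference of 0.81 ± 0.27 (SE; limma adjusted p = 0.637), without overlap; it became 0.52 without spermidine replicate 2. Macrophages also make Apoe, and the macrophage marker values are given above. Abcg1, the partner transporter, read 11.38 and 12.48 against 12.15 and 12.86, with overlap, and its difference of 0.57 became 0.02 without control replicate 1.

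Sterol uptake and transport within the cell was measured in 10 of 12 genes, 7 higher and 3 lower, with a median of 0.11 and 0 past the adjusted test. Npc1, which moves cholesterol out of lysosomes, read 9.56 and 9.83 against 9.97 and 10.63, a difference of 0.60 that became 0.27 without spermidine replicate 2. Lipa, the lysosomal acid lipase, read 10.65 and 10.66 against 10.73 and 11.20, a difference of 0.31 that became 0.074 without spermidine replicate 2. Gramd1a, a sterol transfer protein, had a difference of 0.32 with overlapping groups, and 0.034 without spermidine replicate 2. Other sterol and isoprenoid genes, which use the intermediates for other products, were measured in 8 of 11, with 5 higher and 3 lower and a median of 0.08, which turned to -0.11 without control replicate 2. Among them the farnesyltransferase subunit Fntb had a difference of -0.51 with overlapping groups, which became -0.053 without spermidine replicate 2 and -0.25 without control replicate 1. The dolichol synthesis gene Dhdds had a difference of -0.20.

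Other fatty acid and glycerolipid genes were measured in 25 of 26, with 13 lower and 12 higher, a median of -0.03 and 0 past the adjusted test. Of the 25, 12 were under the background percentile in both groups, so these counts and the median mix dim genes with brighter ones. Tecr, the reductase that completes each elongation cycle, read 12.63 and 12.74 in the controls and 12.19 and 12.15 with spermidine, a difference of -0.52 ± 0.22 (SE; limma adjusted p = 0.706), without overlap. Lpin1, a phosphatidate phosphatase, read 11.12 and 11.59 against 11.79 and 12.45, a difference of 0.77 ± 0.30 (SE; limma adjusted p = 0.685), also without overlap and in the other direction; it became 0.44 without spermidine replicate 2. Scd4 had a difference of -0.70 between signals under the background percentile. The differences between these lists and the member branches were not tested.

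**Figure D5:**
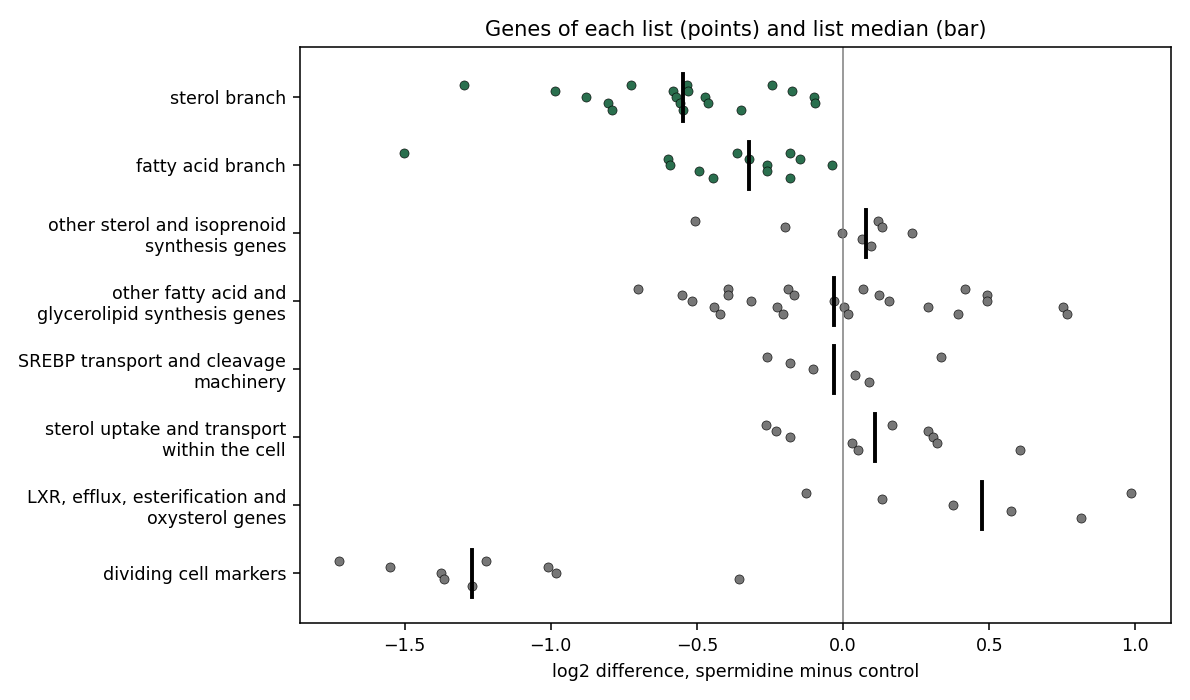
Log2 difference (spermidine minus control) of each measured gene in 8 lists; points are genes and bars the list medians. The 19 sterol and 13 fatty acid members lie below 0 (medians -0.55 and -0.32; Fasn turns to 0.021 or 0.015 under other normalizations), the efflux list has a median of 0.48 (0.061 without control replicate 1), and the dividing cell markers -1.27.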

How the data were processed

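The authors deposited 1 log2 signal per feature and array, computed by RMA in Affymetrix Expression Console according to the deposited labels (per the submitters' processing notes); versions and genome build are not given in the sources used here. RMA subtracts background, then quantile-normalizes and summarises probe sets. Differences of dim features can be compressed in such values. Base 2 was inferred from the range of values. Of 28846 features, 6640 control features were left out and 22206 were tested, 19572 of them with 1 symbol, 0 with several and 2634 with none; symbols were checked by Entrez identifier in a RefSeq table of GRCm38.p6, with 0 changed. Array medians lay between 5.13 and 5.25 and correlations between arrays from 0.989 to 0.994. The background percentile, 6.35, is the mean over arrays of the 95th percentile of 23 antigenomic features. The exact permutation test of 2 against 2 cannot go below p = 0.333 and was not used; the number of arrays limits the precision.

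The arrays were compared with limma 3.58.1 in R 4.3.3 (lmFit and eBayes, two-sided, Benjamini-Hochberg over all gene features, threshold 0.05). The test was first tried on simulated data, where it recovered 4.9% of 2-fold changes and 88.3% of 4-fold changes. A change of 2-fold would thus seldom pass the adjusted threshold. The members and lists were chosen with earlier results of these data known, and lists get counts and medians only. Named in full were the 5 members of each branch with the largest moderated statistic and the regulators Srebf2 and Insig1 (Srebf1 was not analysed here); the other members are given by their values, and from each other list up to 3 genes. Alternatives were other priors, array weights, further normalizations, filters on dim features, other feature choices, the replicate number as a block, and leaving out each array. Some genes of the further lists are not reported here.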

Additional observations from a re-analysis of the deposited data

How the results depend on the processing

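Over the 15 alternatives the 32 members gave 477 values, of which 472 kept the sign of the reported value and 0 had an adjusted p under 0.05 (range 0.196 to 1, limma). The 5 that turned were Fasn, at 0.021 after further quantile normalization, 0.015 after cyclic loess, 0.029 leaving out control replicate 1 and 0.089 leaving out spermidine replicate 2, and Acaca, at 0.047 leaving out spermidine replicate 2. Leaving out each array in turn, Fasn ran from -0.16 to 0.089, Acaca from -0.57 to 0.047 and Fnta, outside the members, from -0.066 to 0.54. The medians of the further lists without each array were added after seeing the data; that of the other sterol and isoprenoid genes ran from -0.11 to 0.12, and no other of these lists changed sign. The causes were not tested. Without 1 array the sterol median ran from -0.75 to -0.29, the fatty acid median from -0.51 to -0.18, and the count of members with both groups apart from 21 to 32, where fewer arrays make overlap rarer by construction. Over all gene features 1 passed the adjusted threshold with a trend prior, median centring, cyclic loess, either filter on dim features (at the median level and at the background percentile) or the replicate block, against 0 otherwise; it was Hmox1 each time, no member, and without 1 array the count ran from 0 to 0. The replicate block left the member values and branch medians as they were (-0.55 and -0.32), called 0 members and 1 feature. The labels do not say that a replicate number marks shared cultures; deviations of same-numbered arrays had a correlation of 0.21 over features. With 2 arrays a group the precision is low, with a median SE of 0.246 (log2) over all features. Mvk and Me1 lay under the background percentile in both groups and bear no fold.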
